A study of Mus musculus with 127 samples.

Results

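A set of 9 genes that encode cytosolic calcium-binding proteins of neurons were followed through every cell of the series. They are the EF-hand buffers Calb1 (calbindin), Calb2 (calretinin) and Pvalb (parvalbumin), and the neuronal calcium sensors Ncald (neurocalcin delta), Vsnl1 (visinin-like protein), Hpca (hippocalcin), Hpcal1, Hpcal4 and Ncs1. Their rows were taken by Ensembl identifier and mouse symbol from a table of read counts. All 9 were present, among 53465 genes in all.

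The study combined whole-cell recording with RNA sequencing of the same cell (Patch-seq) in a culture model of Huntington's disease. Striatal neurons of newborn (P0-P1) wild-type C57BL/6 mice were grown on microislands of cortical astrocytes and infected with a lentivirus carrying human HTT exon 1 joined to GFP, with 25 glutamines (25Q) or an expanded stretch of 97 (97Q). The 4 main groups carried one of these constructs: 25Q with vehicle (DMSO; 29 cells), 97Q with vehicle (26 cells), 25Q with RGFP109 (23 cells) and 97Q with RGFP109 (26 cells). RGFP109 inhibits the histone deacetylases HDAC1 and HDAC3 and was given at 100 nM on days in vitro (DIV) 6, 9 and 12. A further 9 vehicle-treated neurons had received the empty vector, which lacks the HTT cassette, and 14 samples were cortical astrocytes of the feeder layer. Cells were collected through the patch pipette at DIV 15. The constructs are exon 1 fragments expressed from a virus in cultured newborn neurons, and the labels name no animal for any cell. The series text counts 117 neurons, 4 more than were analysed here. The labels give each cell a batch, 1 to 3. The 4 HTT groups had cells in all 3 batches, with 34, 15 and 55 neurons, while empty vector neurons and astrocytes were in batch 3 only.

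A rise in cytosolic calcium is shaped by 2 kinds of EF-hand protein. Buffers such as calbindin, calretinin and parvalbumin bind calcium and limit how far and how long the rise spreads, and they are classic markers of neuron classes. In the striatum calbindin is found in projection neurons of the matrix, whereas calretinin and parvalbumin mark separate sets of interneurons. Sensors change shape on binding calcium and pass the signal to partner proteins, and many carry a fatty acid at the N terminus that is exposed by calcium and takes them to membranes (the calcium-myristoyl switch).

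Cells held 999700 to 9263305 counted reads, with medians of 4245947 in neurons and 7441964 in astrocytes. All but 3 neurons had at least 100 reads per 1000000 counted reads (CPM) of Gad1 and Gad2 together, the enzymes that make GABA, against 0 of 14 astrocytes. The 14 astrocyte markers summed to medians of 191 to 312 CPM in the 5 neuron groups and to 10049 CPM in the astrocytes, and 9 neurons reached 1005 CPM, which is 10% of the astrocyte median (glial-rich neurons). Each sample is 1 cell. For tests, reads were added up over a group's cells, batch by batch (12 sums, n = 3 batches per group), and a batch is the replicate here. Nothing in the labels says that batches were separate litters, so the p-values measure only the spread between these sums. In such sums, fewer cells with a transcript and less transcript per cell cannot be told apart.

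The 6 sensors are close relatives, and their coding sequences were compared because short reads are assigned by sequence. In the GENCODE M21 transcripts their coding sequences ran from 570 to 579 bases without the stop codon, and in all 6 the second codon was glycine, the residue that is myristoylated. Hpca and Hpcal1 shared 86.0% of coding bases and 93.8% of encoded residues. Ncald shared 78.6% of bases and 88.1% of residues with Hpca, and 80.1% and 89.6% with Hpcal1. Hpcal4 and Vsnl1 formed a second pair with 82.4% of bases and 89.5% of residues in common. Ncs1 was the most distant, with 56.1% to 58.95% of residues shared with each of the others. The window of 60 coding bases (positions 289 to 348, counted from the start codon) in which Hpcal1 and Ncald together were most like Hpca shows how close the family is. Bases equal to those of Hpca are in lower case, and capitals mark the bases that differ.
Hpca: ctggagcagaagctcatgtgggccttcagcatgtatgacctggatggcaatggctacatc
Ncald: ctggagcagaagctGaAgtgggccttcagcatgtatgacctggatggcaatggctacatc
Hpcal1: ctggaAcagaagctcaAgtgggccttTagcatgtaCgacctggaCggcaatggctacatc
Vsnl1: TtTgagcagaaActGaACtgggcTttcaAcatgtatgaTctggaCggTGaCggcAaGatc
Hpcal4: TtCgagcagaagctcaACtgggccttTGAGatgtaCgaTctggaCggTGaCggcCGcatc
Ncs1: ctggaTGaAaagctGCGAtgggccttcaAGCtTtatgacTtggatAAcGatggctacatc
Ncald differed from Hpca at 2 of these 60 bases, Hpcal1 at 5, Vsnl1 and Ncs1 at 15 and Hpcal4 at 16. Over the transcripts compared the longest stretch identical between any pair of sensors was 46 bases (Hpca and Ncald), followed by 38 bases (Hpca and Hpcal1). Reads lying wholly inside such a stretch could not be told apart. The 3 buffers had shared runs of at most 12 bases.

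Overlap with other genes touched 2 members. On GRCm38, Ncald (ENSMUSG00000051359) lies on the minus strand of chromosome 15 (37366175 to 37792570), and 7.38% of its 8581 exonic bases overlap Gm28221, an antisense gene, or Gm49397. Hpca (ENSMUSG00000028785) lies on the minus strand of chromosome 4 (129111570 to 129122036) and shares 57 exonic bases with Tmem54 on the other strand. Reads given to Gm28221 came to 12.8% of those of Ncald over all neurons, and those given to Tmem54 to 7.37% of those of Hpca. The kit named in the labels does not mark strand, so reads of the antisense pairs cannot be told apart. The other members overlapped no annotated exon of another gene: Calb1 (ENSMUSG00000028222, chromosome 4, 15881264 to 15908064, plus), Calb2 (ENSMUSG00000003657, chromosome 8, 110137502 to 110168210, minus), Pvalb (ENSMUSG00000005716, chromosome 15, 78191114 to 78206400, minus), Vsnl1 (ENSMUSG00000054459, chromosome 12, 11325242 to 11436613, minus), Hpcal1 (ENSMUSG00000071379, chromosome 12, 17690856 to 17791933, plus), Hpcal4 (ENSMUSG00000046093, chromosome 4, 123183227 to 123194701, plus) and Ncs1 (ENSMUSG00000062661, chromosome 2, 31245823 to 31295989, plus).

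Median levels of the 6 sensors were above those of the 3 buffers. Per kilobase of exon, median levels over all neurons were 66.5 CPM for Vsnl1, 39.2 for Hpcal4, 17.8 for Ncs1, 15.0 for Ncald, 12.3 for Hpcal1 and 7.87 for Hpca. Exon length was that of all annotated exons of a gene merged, 8581 bases for Ncald, whose transcript used above for coding bases has 3733. For Ncs1 both lengths are 4653 bases, so the order of Ncs1 and Ncald depends on the length used. The buffers were far below, at 0.202 CPM per kilobase for Calb1, 0.212 for Calb2 and 0 for Pvalb. In 25Q vehicle sums the means per kilobase were 117 ± 143 CPM for Hpcal1, 104.3 ± 41.8 for Vsnl1, 73.9 ± 25.1 for Hpcal4, 48.7 ± 40.9 for Ncald, 38.6 ± 20.8 for Hpca, 29.28 ± 43.03 for Calb1, 13.8 ± 7.65 for Ncs1, 6.53 ± 7.02 for Calb2 and 0.405 ± 0.701 for Pvalb (SD, n = 3 batches). Each gene in this order differed from the next by less than the larger of their SDs. Hpcal1 led the sums but not the medians, and its highest 25Q vehicle cell held 36.1% of that group's reads.

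Breadth of detection separated the members as well. At least 1 read was found in 112 neurons (99.1%) for Vsnl1, 111 for Hpcal4 and for Ncs1, 107 for Ncald, 98 for Hpcal1, 94 for Hpca, 85 for Calb1, 64 for Calb2 and 11 for Pvalb. With a minimum of 10 reads the counts were 108 for Vsnl1, 109 for Ncs1, 101 for Hpcal4, 92 for Ncald, 68 for Hpcal1, 69 for Hpca, 46 for Calb1, 42 for Calb2 and 6 for Pvalb. Calb1, Hpcal1, Hpca and Calb2 had the most cells with fewer than 10 reads among those with any. Astrocytes gave a comparison. Of 14, 0 had a read of Calb1 or Calb2, which allows a share of up to 21.4% of such cells (3 of 14, the limit taken for a count of 0). A read of Hpca was found in 1 of 14 and of Pvalb in 1. At least 1 read was also found in 7 of 14 astrocytes for Vsnl1, 6 for Hpcal1, 5 for Hpcal4 and 14 each for Ncald and Ncs1. For these 5 sensors 1 read alone was thus not particular to neurons.

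**Figure D1:**
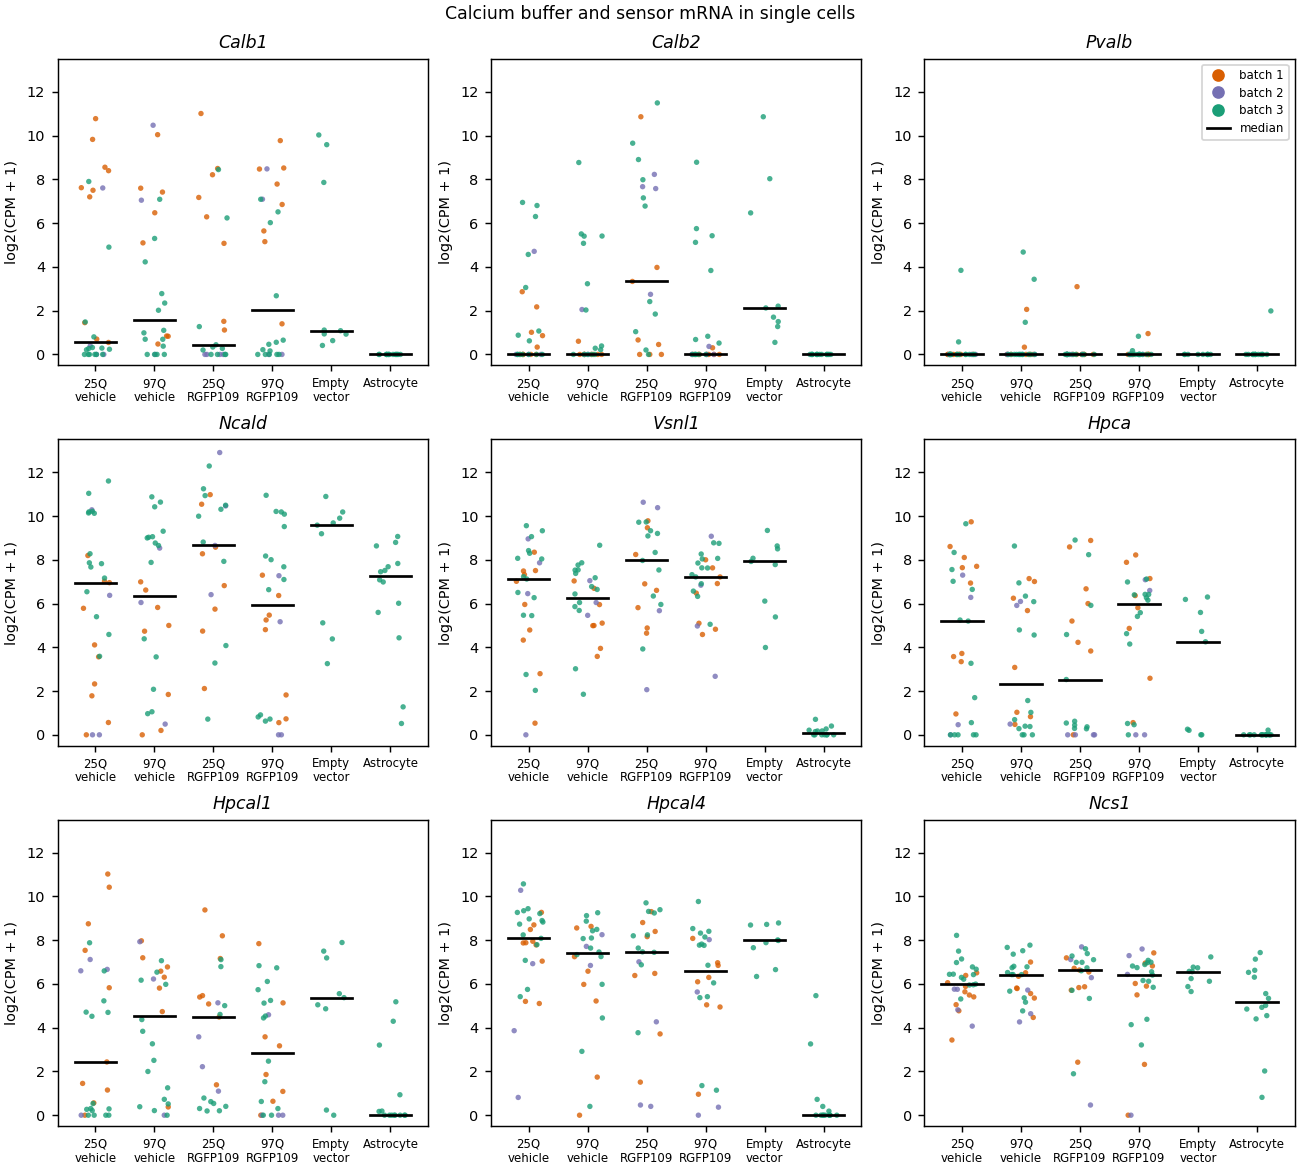
Level of each member in single cells, as log2(CPM + 1), by group (x axis); points are cells coloured by batch and bars are medians. Vsnl1, Hpcal4 and Ncs1 form a band in nearly all neurons, Calb1 and Calb2 spread from 0 up to 2064 and 2889 CPM with many cells near 0, and Pvalb reaches at most 24.6 CPM.

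Calb1, the calbindin of projection neurons, differed between batches in all 4 HTT groups. Over the 4 HTT groups its median was 145 CPM in the 34 neurons of batch 1, 0 in the 15 of batch 2 and 0.244 in the 55 of batch 3. The 25Q vehicle sums were 383, 27.8 and 15.3 CPM in batches 1, 2 and 3, and the 97Q vehicle sums were 151, 568 and 13.0 CPM. Under RGFP109 the 25Q sums were 364, 0 and 25.2 CPM and the 97Q sums 285, 93.0 and 24.8 CPM. The groups overlapped in every comparison. In batch 2 single cells held most reads, with 91.9% of the 97Q vehicle reads in 1 of 3 cells and 99.8% of the 25Q vehicle reads in 1 of 4.

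Pvalb was close to absent. It had a read in 11 neurons of the HTT groups (10.6%) and in none of the 9 empty vector neurons, and its highest cell reached 24.6 CPM. It was read in too few cells to be tested, and 1 of 14 astrocytes also had reads, at 2.97 CPM.

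Calb2, the calretinin of interneurons, was highest, among the 4 HTT groups, in 25Q neurons given RGFP109. Its sums there were 157, 179 and 550 CPM in batches 1, 2 and 3, against 1.31, 7.83 and 25.0 CPM in 25Q vehicle neurons. In 97Q neurons the sums were 0.0545, 1.15 and 20.9 CPM with vehicle and 0.0367, 0.0773 and 35.6 CPM with RGFP109. All 3 treated 25Q sums lay above the 9 others of the HTT groups, a pattern not counted over all genes. The empty vector sum, from vehicle-treated neurons of batch 3, was 212 CPM and thus above the treated 25Q sums of batches 1 and 2. At least 10 reads were found in 15 of 23 treated 25Q neurons, against 8 of 29 with 25Q and vehicle, 8 of 26 with 97Q and vehicle and 5 of 26 with 97Q and RGFP109. With each cell thinned to 900000 reads, at least 1 read was left in 17, 10, 11 and 7 neurons of these groups in the same order.

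Few cells carried most of the calretinin reads. One treated 25Q cell in batch 3 reached 2889 CPM and held 56.4% of that group's reads, and in batch 1 a single cell held 97.4%. Without the highest cell of each batch the treated 25Q sums became 4.41, 128 and 192 CPM, against 0.713, 0 and 16.3 CPM for 25Q vehicle treated the same way. The median of the treated 25Q cells was 0.476 CPM in batch 1, 196 in batch 2 and 109 in batch 3, and the other HTT groups had batch medians of at most 0.538 CPM. In batch 1 the level thus rested on 1 cell, whereas in batches 2 and 3 several cells were high.

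Ncald, a sensor known to bind clathrin and actin and to act on endocytosis, was also highest in treated 25Q neurons. The sums were 462, 2147 and 1429 CPM in batches 1, 2 and 3 with 25Q and RGFP109, and 75.5, 401 and 777 CPM with 25Q and vehicle. In 97Q neurons they were 32.4, 153 and 526 CPM with vehicle and 49.03, 53.1 and 460 CPM with RGFP109. Within each batch the treated 25Q sum was the highest of the 4. The treated 25Q sums overlapped those of 25Q vehicle, since 777 CPM in batch 3 exceeded 462 CPM in batch 1, and batch 1 was the lowest batch in all 4 groups. Astrocytes expressed Ncald too, at a median of 154 CPM in 14 of 14 cells, and the part of the feeder layer in a neuron's reads was not tested. Without the highest cell of each batch the treated 25Q sums were 323, 684 and 1004 CPM, against 41.6, 20.6 and 624 CPM for 25Q vehicle treated the same way. In batch 2 of 25Q vehicle 1 of 4 cells held 96.5% of the Ncald reads, and in batch 2 of treated 25Q 1 of 4 held 74.8%.

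Vsnl1, which acts on cyclic nucleotide and receptor signalling, was neuronal, with a median of 130 CPM in neurons and 12 reads in all 14 astrocytes together. Its sums were 110, 256 and 247 CPM in batches 1, 2 and 3 for 25Q vehicle and 57.1, 76.3 and 138 CPM for 97Q vehicle. With RGFP109 they were 279, 695 and 390 CPM for 25Q and 134, 175 and 214 CPM for 97Q. In each batch the 97Q sum was below the 25Q sum of the same treatment, and the treated sum was above the vehicle sum of the same construct. The treated 25Q sums lay above all others of the HTT groups, a pattern not counted over all genes. Against 25Q vehicle alone, 2.89% of all genes had higher sums without overlap and 3.84% had lower ones. In the HTT groups no single cell held more than 21.6% of a group's reads.

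Hpca, a sensor of hippocampal and striatal neurons that drives the slow afterhyperpolarisation, was lower in all 3 batches of 97Q vehicle neurons. The sums were 49.3, 45.5 and 50.4 CPM there and 177, 55.8 and 106 CPM in 25Q vehicle neurons, and the groups did not overlap. With RGFP109 they were 145, 0 and 61.2 CPM for 25Q and 126, 44.4 and 57.3 CPM for 97Q. The 0 belongs to the 4 treated 25Q neurons of batch 2, which also had no Calb1 read. The median over cells was 35.7 CPM with 25Q and 4.71 CPM with 97Q under vehicle, and 4.77 and 62.7 CPM under RGFP109.

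Hpcal1, the closest relative of Hpca, had sums of 476, 82.4 and 35.3 CPM in 25Q vehicle neurons and 78.2, 115 and 26.8 CPM in 97Q vehicle neurons. With RGFP109 they were 214, 12.6 and 28.3 CPM for 25Q and 43.5, 7.96 and 36.9 CPM for 97Q, so all 4 groups overlapped. Hpcal4, the closest relative of Vsnl1 and a modulator of presynaptic calcium channels, had sums of 241, 489 and 453 CPM for 25Q vehicle and 157, 211 and 271 CPM for 97Q vehicle. Its treated sums were 232, 34.9 and 379 CPM for 25Q and 108, 57.5 and 252 CPM for 97Q. The vehicle groups met only where the highest 97Q sum exceeded the lowest 25Q sum, from another batch.

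Ncs1, the most widely expressed sensor of the family and a regulator of exocytosis and potassium channels, was the steadiest member. Its sums ranged from 32.0 to 109 CPM over all 12 group and batch pairs. They were 50.1, 37.8 and 105 CPM for 25Q vehicle and 65.0035, 32.0 and 109 CPM for 97Q vehicle. With RGFP109 they were 84.9, 109 and 108 CPM for 25Q and 88.5, 90.9 and 83.4 CPM for 97Q.

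**Figure D2:**
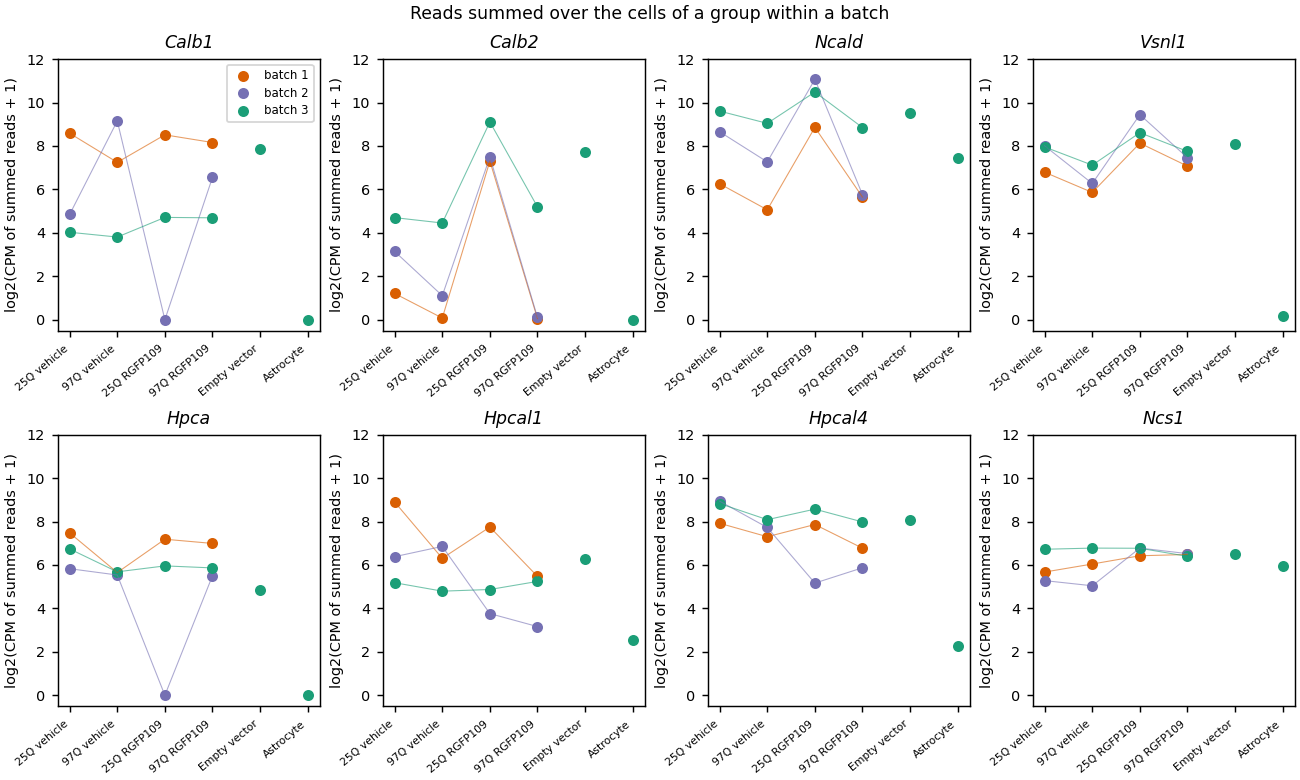
Summed reads per group and batch, as log2(CPM + 1), by group (x axis); points are sums coloured by batch, and lines join the 4 HTT groups of a batch. Calb2, Ncald and Vsnl1 peak at 25Q RGFP109 in all 3 batches, whereas Calb1 and Hpca drop to 0 there in batch 2 only.

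The first comparison asked what the expanded repeat changed in vehicle-treated neurons. Of the 8 members tested (Pvalb was not), 6 had a negative log2 fold change of 97Q against 25Q, as had 7189 of all 15091 genes tested. The median of the 8 members was -0.998, against 0.06 over all genes tested. None of the 8 passed edgeR's quasi-likelihood test at an adjusted p under 0.05, where 0% of all genes passed. Vsnl1 had the smallest p, with a log2 fold change of -1.18 (SE 0.31, edgeR p = 0.00425, adjusted p = 0.969) and differences of -0.93, -1.73 and -0.84 in batches 1, 2 and 3 on the log2(CPM + 1) scale. It was the 1 member with an unadjusted p under 0.05, as were 3.96% of all genes (1.5% higher and 2.46% lower). A total of 5 members (Calb2, Ncald, Vsnl1, Hpca and Hpcal4) were lower in all 3 batches, a pattern shown by 13.2% of all genes, and Hpca alone had sums that did not overlap, as had 4.68% of all genes in that direction and 3.78% in the other. DESeq2 passed none of the 8, with an adjusted p of 0.0541 for Vsnl1, and 1.41% of all genes.

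The other values in vehicle neurons had wide errors. Ncald stood at -1.08 (SE 0.53), Hpcal4 at -1.02 (SE 0.64), Hpca at -0.98 (SE 1.30) and Hpcal1 at -0.63 (SE 0.92). Calb2 stood at -2.46 (SE 1.39) and Calb1 at 1.58 (SE 1.90), a sign that batch 2 alone carried. Ncs1 stood at 0.07 (SE 0.46).

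Markers of GABA neurons differed between the same groups. The 4 GABAergic markers summed to 2289, 2933 and 5126 CPM in the 25Q vehicle batches and to 1004, 889 and 1778 CPM in the 97Q vehicle batches, with none of the 4 at 0 in either group. The 14 projection neuron markers summed to 2025, 3909 and 863 CPM in 25Q vehicle and to 729, 969 and 453 CPM in 97Q vehicle, again with none at 0. The projection neuron sums overlapped, since 969 CPM in 97Q batch 2 exceeded 863 CPM in 25Q batch 3. Pan-neuronal markers overlapped as well, at 4986, 5807 and 8740 CPM against 5193, 7061 and 7474 CPM. The part of these 3 marker lists in the lower Vsnl1, Ncald and Hpca values was not tested.

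The same comparison under RGFP109 gave the widest differences among members. Calb2, Ncald and Vsnl1 had sums in 97Q neurons below all those of 25Q neurons, a pattern shown by 3.58% of all genes (3.6% in the other direction). The same 3 were the members that were lower in all 3 batches, as were 13.4% of all genes, and 13.3% were higher in all 3. Ncald had a log2 fold change of -3.37 (SE 0.58, edgeR p = 0.000223, adjusted p = 0.728), with batch differences of -3.21, -5.31 and -1.63. Without the 8 glial-rich neurons of the HTT groups the Ncald value was -3.49, and -1.14 for the same comparison with vehicle. Calb2 stood at -8.20 (SE 1.78, edgeR p = 0.00114, adjusted p = 0.999), a fitted value that rests on 97Q sums of 1 read each in batches 1 and 2 and of 2716 reads in batch 3. Vsnl1 stood at -1.26 (SE 0.31, edgeR p = 0.00275, adjusted p = 0.999), with batch differences of -1.06, -1.99 and -0.86.

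The tools disagreed on these 3 genes. None of the 8 members passed edgeR's adjusted threshold, and 0% of all genes did. DESeq2 passed 3 of the 8, with adjusted p-values of 2.56e-08 for Calb2, 1.62e-05 for Ncald and 0.0346 for Vsnl1, against 1.84% of all genes. By unadjusted edgeR p these 3 were also the members under 0.05, all lower, against 3.74% of all genes in either direction and 1.84% lower. limma-voom gave adjusted p-values of 0.573 for Calb2, 0.786 for Ncald and 0.687 for Vsnl1. Hpcal1, Hpcal4 and Ncs1 stood at -0.73 (SE 0.92), -0.61 (SE 0.64) and -0.07 (SE 0.46), and Calb1 and Hpca at 0.39 (SE 1.64) and 0.64 (SE 1.36). GABAergic markers summed to 3704, 3316 and 4904 CPM in treated 25Q neurons and to 1221, 710 and 2018 CPM in treated 97Q neurons, and their part in these differences was not tested. The 12 interneuron markers, which do not include Calb2, summed to 287, 7.86 and 9.17 CPM in treated 25Q neurons and to 29.5, 11.9 and 57.4 CPM in treated 97Q neurons, with none of the 12 at 0 in the former and 1 in the latter. Their part in the Calb2 values was not tested. With batch 1, 2 or 3 left out, the Calb2 value ranged from -11.64 to -6.01, and with no batch term it was -4.69 (edgeR unadjusted p = 0.0562).

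RGFP109 was next compared with vehicle within each construct. In 25Q neurons Calb2 had a log2 fold change of 5.75 (SE 1.52, edgeR p = 0.00401, adjusted p = 1), Ncald of 2.13 (SE 0.54, edgeR p = 0.00331, adjusted p = 1) and Vsnl1 of 1.17 (SE 0.31, edgeR p = 0.00425, adjusted p = 1). All 3 were higher in all 3 batches, as was Ncs1 at 0.77 (SE 0.46), a pattern shown by 12.3% of all genes. The sums of Calb2 and Vsnl1 did not overlap, as in 2.89% of all genes in that direction and 3.84% in the other. None of the 8 members passed edgeR's adjusted threshold (0% of all genes), and 3 had an unadjusted p under 0.05 and were higher, against 1.12% of all genes higher, 1.4% lower and 2.52% in either direction. With no batch term Calb2 stood at 4.72 (edgeR unadjusted p = 0.0551), Ncald at 1.68 (edgeR unadjusted p = 0.16) and Vsnl1 at 1.13 (edgeR unadjusted p = 0.0493). DESeq2 passed Calb2 (adjusted p = 0.00199) and Ncald (adjusted p = 0.0435), against 0.948% of all genes. Hpca, Hpcal1 and Hpcal4 were lower in all 3 batches, at -1.09 (SE 1.34), -1.28 (SE 0.90) and -1.13 (SE 0.68), as were 13.8% of all genes. Calb1 stood at 0.16 (SE 1.57).

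In 97Q neurons Vsnl1 was the 1 member with an unadjusted p under 0.05. Its log2 fold change was 1.09 (SE 0.31, edgeR p = 0.00662, adjusted p = 0.999), with batch differences of 1.21, 1.19 and 0.63. Higher values in all 3 batches were found for 9.64% of all genes, and an unadjusted p under 0.05 for 2.48% (1.39% higher). Without the 8 glial-rich neurons of the HTT groups the value was 0.67 (edgeR unadjusted p = 0.205). No member had sums that did not overlap, as 2.76% of all genes had in the higher and 3.39% in the lower direction. Hpcal4 was lower in all 3 batches, at -0.73 (SE 0.64), as were 14.1% of all genes. Ncald stood at -0.16 (SE 0.52), Calb2 at 0.01 (SE 1.63), Hpca at 0.52 (SE 1.29), Hpcal1 at -1.38 (SE 0.98), Ncs1 at 0.63 (SE 0.47) and Calb1 at -1.03 (SE 1.73). No member passed by edgeR (0% of all genes) or by DESeq2 (0.729% of all genes). The comparisons share groups: 25Q RGFP109 enters those of repeat length under drug and of drug in 25Q.

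The interaction asked whether the drug difference itself depended on repeat length. Calb2 had -5.74 (SE 1.92, edgeR p = 0.0144, adjusted p = 0.998) and Ncald -2.29 (SE 0.75, edgeR p = 0.0129, adjusted p = 0.998), both negative in all 3 batches. These were the 2 members with an unadjusted p under 0.05, as were 2.6% of all genes (1.02% lower), and no member passed by edgeR (0% of all genes) or DESeq2 (0.464%). Vsnl1 stood at -0.09 (SE 0.44), and a difference between its drug values in 97Q and 25Q neurons was not detected. For Calb1 the fitted value of -1.19 (SE 2.26) had the opposite sign to the differences in all 3 batches, which were 0.98, 2.25 and 0.20 on the log2(CPM + 1) scale.

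**Figure D3:**
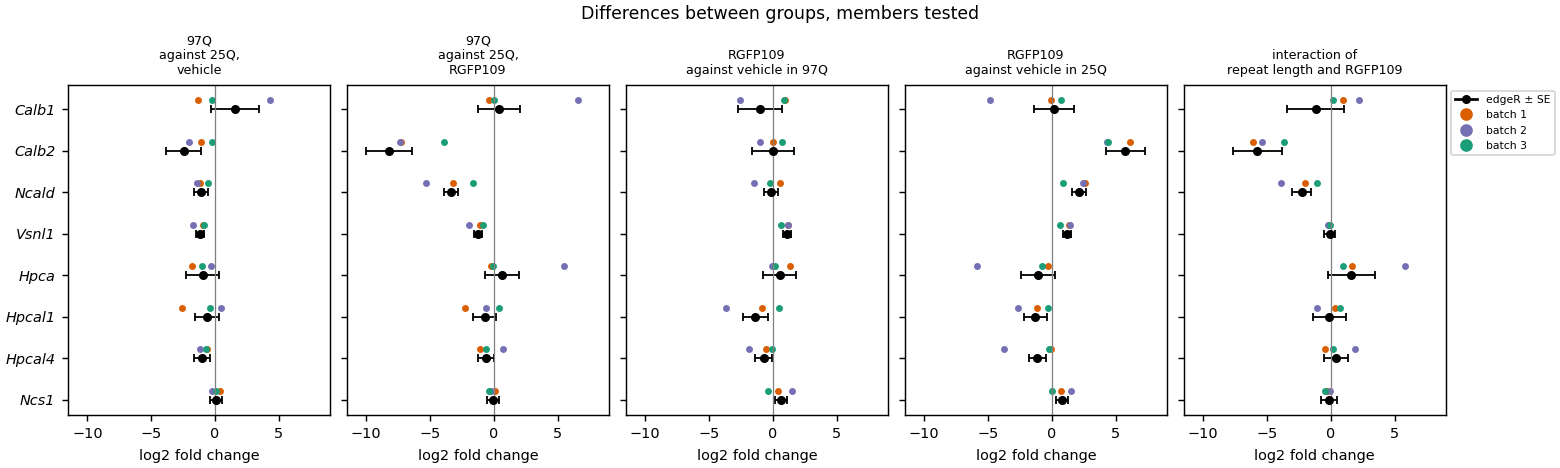
log2 fold change (x axis) of the 8 members tested in the 5 comparisons; black points and bars are edgeR estimates ± SE, and coloured points are the differences of log2(CPM + 1) in each batch. Calb2, Ncald and Vsnl1 lie to the left for 97Q against 25Q under RGFP109 and to the right for RGFP109 against vehicle in 25Q; no member passed the adjusted threshold by edgeR.

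Empty vector neurons and astrocytes had 1 sum each, so they were compared by level, with no test. In batch 3 the empty vector sum of Calb1 was 235 CPM against 15.3 in 25Q vehicle neurons, and that of Calb2 was 212 against 25.0 CPM, differences of 3.85 and 3.03 on the log2(CPM + 1) scale. Of the 9 members, 3 (with Hpcal1 at 75.3 against 35.3 CPM) were at least 2-fold higher, as were 15.7% of all genes. Single cells carried much of this, with 58.7% of the Calb1 reads and 78.2% of the Calb2 reads of the 9 cells in 1 cell each. Hpca was lower, at 28.2 against 106 CPM, as was Pvalb, which was not among the genes tested, at 0 against 1.26 CPM. Of all genes tested, 15.0% were at least 2-fold lower. With 10 CPM added in place of 1 the differences of Hpcal1 and Pvalb were 0.91 and -0.17, short of 2-fold. Ncald (742 and 777 CPM), Vsnl1 (272 and 247 CPM) and Ncs1 (89.6 and 105 CPM) differed by -0.07, 0.14 and -0.22 on the log2(CPM + 1) scale. On that scale Hpcal4 (272 and 453 CPM) differed by -0.73.

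Astrocytes kept 2 of the sensors. Ncald was at 173 CPM and Ncs1 at 60.1 CPM in their sum, against 742 and 89.6 CPM in empty vector neurons, and both were read in 14 of 14 astrocytes. Hpcal1 stood at 4.86 against 75.3 CPM and Hpcal4 at 3.76 against 272 CPM, with 86.5% of the astrocytes' Hpcal4 reads in 1 cell. Vsnl1 had 12 reads (0.122 CPM), Hpca 1 read and Calb1 and Calb2 none. Taking 3 reads as the limit over the 14 astrocytes, Calb1 was at least 7697-fold and Calb2 at least 6958-fold higher in the empty vector sum. These values hold for the sum and rest on few cells. The median over the 9 empty vector neurons was 1.12 CPM for Calb1 and 3.36 CPM for Calb2. Of the 9 members, 7 were at least 2-fold lower in astrocytes, as were 33.3% of the 15091 genes tested. None was at least 2-fold higher, as were 20% of the genes tested. Those genes were kept by their reads in the HTT neurons, and astrocytes did not enter that choice. Genes read mainly in astrocytes can thus be missing from both shares, and Pvalb was not among the genes tested.

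Across single neurons Calb2, Ncald and Vsnl1 varied together, and Calb1 had a positive rho with Hpca. Over all neurons, which share batches and differ in depth, Calb2 and Ncald had a Spearman rho of 0.57, Ncald and Vsnl1 of 0.49 and Calb2 and Vsnl1 of 0.42. Calb1 and Hpca had a rho of 0.42 with each other, and of 0.18, 0.71 and 0.24 within batches 1, 2 and 3. Across these sets Ncald had a rho of -0.45 with Hpca and of -0.42 with Calb1. Within batches 1, 2 and 3, with 34, 15 and 64 neurons, Ncald and Hpca gave -0.39, -0.66 and -0.39, and Calb2 and Ncald gave 0.37, 0.78 and 0.45. Ncald and Calb1 gave -0.15, -0.50 and -0.32, weakest in batch 1. Ncald and Vsnl1 gave 0.07, 0.42 and 0.49, so that pair was near 0 in batch 1. The rho of Hpcal1 with the other members lay between -0.198 (Ncs1) and 0.17 (Calb1).

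**Figure D4:**
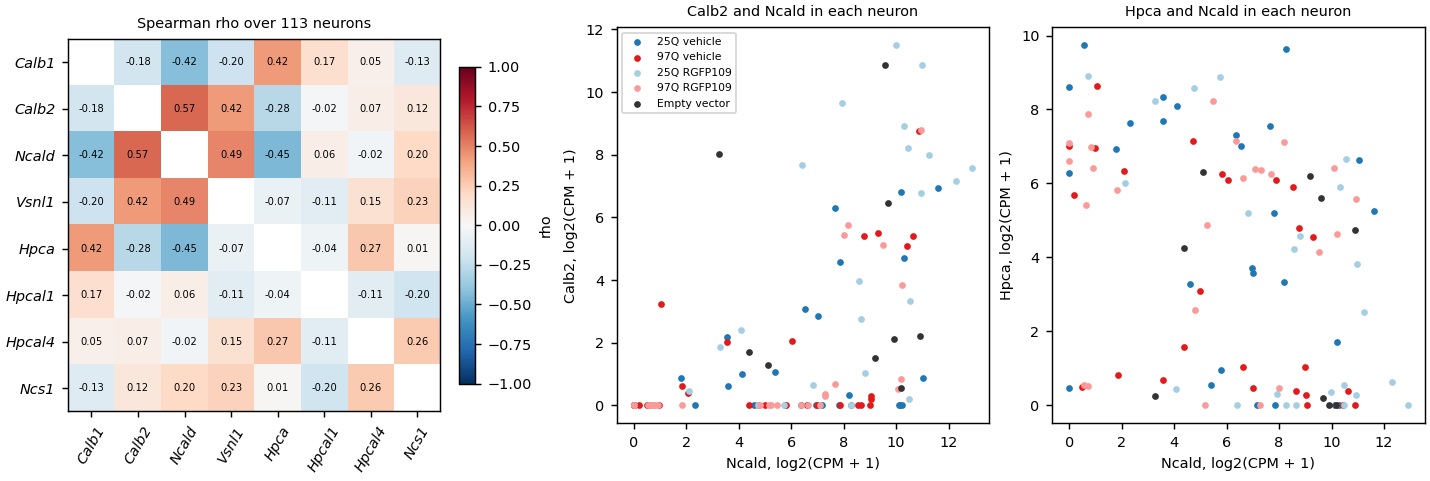
Left, Spearman rho between members over all neurons; middle and right, Calb2 and Hpca (y axes) against Ncald (x axes) in each neuron, as log2(CPM + 1), coloured by group. Cells rich in Calb2 are mostly rich in Ncald (rho 0.57), whereas Hpca is mostly high where Ncald is low (rho -0.45).

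The genes most like each member were named by their rho over the same neurons among the 15091 tested. For Ncald they were its antisense neighbour Gm28221 (0.98), Pnoc, which encodes the neuropeptide nociceptin (0.73), and the G protein subunit Gng2 (0.70). For Calb2 they were Ncald (0.57), Gm28221 (0.56) and the transcription factor Zic1 (0.55). For Vsnl1 they were Zic1 (0.54), Lzts1 (0.53) and Gad1 (0.51). Zic1 was thus among the 3 genes closest to both Calb2 and Vsnl1, with within-batch values of 0.25, 0.68 and 0.40 for Calb2 and of 0.06, 0.58 and 0.55 for Vsnl1.

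Hpca was most like its overlapping neighbour Tmem54 (0.95), the muscarinic receptor gene Chrm1 (0.62) and Ppp1r1b (0.61), which encodes DARPP-32, a marker of projection neurons. The within-batch values for Ppp1r1b were 0.74, 0.69 and 0.52. Calb1 was most like Gm26596 (0.60), Ttc9b (0.59) and Mff (0.59). Within batches 1, 2 and 3 the values were 0.45, 0.30 and 0.38 for Gm26596, 0.19, 0.46 and 0.41 for Ttc9b and 0.30, 0.21 and 0.42 for Mff. Hpcal1 had Tram1 (0.50; 0.07, 0.76 and 0.48 within batches 1, 2 and 3), Klc1 (0.49, with 0.35, 0.51 and 0.47) and BC001981 (0.48, with 0.25, 0.38 and 0.46). Hpcal4 had Gm18101 (0.48, with 0.50, 0.56 and 0.21), Atp5a1 (0.46, with 0.52, 0.66 and 0.17) and Celf3 (0.46, with 0.14, 0.63 and 0.48). Ncs1 had Mapre2 (0.50, with 0.38, 0.70 and 0.44), Arf1 (0.49, with 0.33, 0.71 and 0.36) and Ndufv1 (0.47, with 0.40, 0.73 and 0.34). For comparison, with all neurons pooled over batches, the 95th percentile of rho over all genes lay between 0.21 and 0.36 for the 8 members. Pooled values hold differences between batches too.

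Other calcium-binding genes were counted in 6 lists, with 42 genes tested in each of the 5 comparisons. Of all 15091 genes tested, 7902 stood higher and 7189 lower for 97Q against 25Q with vehicle. The same comparison under RGFP109 had 7562 higher and 7529 lower. RGFP109 had 7238 higher and 7853 lower in 97Q, and 7565 higher and 7526 lower in 25Q. The interaction had 7305 higher and 7786 lower. No gene of these lists passed the adjusted threshold by edgeR in any comparison (adjusted p from 0.969 to 1). The values of the 2 genes with the smallest p of each list and comparison are log2 fold changes with their SE, and p-values under 0.05 are edgeR's before adjustment.

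Of the other neuronal calcium sensors (potassium channel-interacting proteins, recoverin and guanylate cyclase activators), 4 of 7 were tested. In vehicle neurons 2 were higher and 2 lower in 97Q (median -0.68), with Kcnip2, a subunit of A-type potassium channels, at -2.53 (SE 0.89, edgeR p = 0.01904) and Kcnip4 at -1.84 (SE 1.62). Kcnip2 sums were 50.0, 93.2 and 22.8 CPM for 25Q and 4.66, 4.39 and 22.3 CPM for 97Q, so that batches 1 and 2 differed and batch 3 hardly did. With RGFP109 the 97Q sums of Kcnip2 were 50.4, 29.6 and 44.3 CPM. They lay above all 3 vehicle sums of 97Q neurons, as in 2.76% of all genes, and 3.39% were without overlap in the other direction. The drug value in 97Q was 2.18 (SE 0.85, edgeR p = 0.0291), beside Kcnip4 at 3.66 (SE 1.92). Under RGFP109 97Q against 25Q had 1 higher and 3 lower, with Kcnip4 at 2.92 (SE 1.95) and Kcnip3 at -1.71 (SE 1.67). The drug in 25Q gave Kcnip3 at 1.12 (SE 1.53) and Kcnip4 at -1.10 (SE 1.66), and the interaction gave Kcnip4 at 4.76 (SE 2.69) and Kcnip2 at 1.99 (SE 1.16). Under RGFP109 batch 2 had a sum of 0 for Kcnip4 in 25Q and for Kcnip3 in 97Q, on which the fitted values rest in part.

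Of calmodulins and calmodulin-like sensors 8 of 11 were tested, and 6 were lower in vehicle 97Q neurons (median -0.22), with Necab2 at -1.51 (SE 0.89) and Calm3 at 0.38 (SE 0.42). Under RGFP109 5 were lower in 97Q (median -0.39), led by Calm2, one of the genes for calmodulin, at -0.41 (SE 0.16, edgeR p = 0.0338). Calm2 sums were 1345, 2318 and 2176 CPM in treated 97Q neurons and 1890, 3671 and 2601 CPM in treated 25Q neurons, and the groups overlapped. RGFP109 in 97Q had 5 lower (median -0.31), with Calm2 at -0.40 (SE 0.16, edgeR p = 0.0382) and Calm3 at -0.75 (SE 0.43). In 25Q it also had 5 lower (median -0.39), with Necab2 at -1.51 (SE 0.90) and Calm3 at 0.41 (SE 0.42). For the interaction Calm3 stood at -1.16 (SE 0.60) and Necab1 at 5.39 (SE 3.08), the latter over sums that included 0.

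All 4 modulators that bind calmodulin were tested. Pcp4, which speeds calcium exchange on calmodulin, stood at -2.99 (SE 0.72, edgeR p = 0.00236) in vehicle neurons and Gap43, a growth cone protein, at 0.49 (SE 0.33). Pcp4 sums were 337, 541 and 128 CPM in 25Q vehicle neurons and 22.6, 70.4 and 45.9 CPM in 97Q vehicle neurons. The groups did not overlap, as in 4.68% of all genes in that direction and 3.78% in the other. Under RGFP109 the Pcp4 sums were 105, 639 and 229 CPM for 25Q and 79.9, 32.3 and 135 CPM for 97Q, at -1.55 (SE 0.70), beside Gap43 at -0.67 (SE 0.33). The drug in 97Q gave Pcp4 at 1.16 (SE 0.68) and Gap43 at -0.35 (SE 0.33). In 25Q it gave Gap43 at 0.82 (SE 0.33, edgeR p = 0.0358) and Pcp4l1 at -1.15 (SE 1.23). The interaction stood at -1.16 (SE 0.47, edgeR p = 0.0331) for Gap43 and at 1.44 (SE 0.97) for Pcp4.

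S100 proteins, small EF-hand proteins of which several are glial, had 8 of 9 members tested, and none had an unadjusted p under 0.05. All 8 stood higher in vehicle 97Q neurons (median 0.80), with S100a11 at 1.06 (SE 0.69) and S100a16 at 1.49 (SE 1.22), and all 8 with RGFP109 in 25Q (median 1.43), with S100a10 at 1.43 (SE 0.92) and S100a11 at 0.96 (SE 0.70). Both comparisons share the 25Q vehicle sums. Under RGFP109 7 of 8 stood lower in 97Q (median -0.65), with S100b at -5.47 (SE 3.78) and S100a4 at -1.62 (SE 1.25), and RGFP109 in 97Q had 5 lower, with S100a4 at -1.59 (SE 1.25) and S100b at -2.73 (SE 2.39). For the interaction all 8 stood lower (median -1.37), with S100b at -7.82 (SE 4.49) and S100a4 at -3.04 (SE 1.79). S100b sums included 0, and S100b is also 1 of the 14 astrocyte markers. Those markers summed to 587, 121 and 281 CPM in 25Q vehicle batches, 414, 258 and 228 CPM in 97Q vehicle, 350, 621 and 433 CPM with 25Q and RGFP109 and 564, 539 and 418 CPM with 97Q and RGFP109, with at most 1 of the 14 at 0 in any of these groups. The 8 endothelial and mural markers summed to 139, 151 and 68.8 CPM in 25Q vehicle batches and to 1627, 221 and 147 CPM in 97Q vehicle, with 0 and 1 of the 8 at 0. They summed to 61.2, 131 and 65.2 CPM with 25Q and RGFP109 (4 of 8 at 0) and to 184, 18.2 and 63.9 CPM with 97Q and RGFP109 (0 of 8 at 0). In batch 1 of 97Q vehicle, where these markers were highest, S100a10 was at 188 CPM and S100a11 at 105 CPM. In batch 2 of 25Q RGFP109, with these markers at 131 CPM, S100a10 was at 177 CPM and S100a11 at 94.0 CPM. In batch 2 of 97Q RGFP109, where these markers were lowest, they were at 42.1 and 94.6 CPM. The part of either marker list was not tested.

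Other cytosolic EF-hand proteins had 9 of 10 members tested, of which 8 stood higher in vehicle 97Q neurons (median 0.95). Sri (sorcin, a regulator of calcium release) stood at 0.95 (SE 0.37, edgeR p = 0.0292), with sums of 89.1, 21.7 and 82.6 CPM for 25Q and 149, 85.2 and 107 CPM for 97Q, and Pdcd6 at 0.45 (SE 0.40). The Sri sum was higher in 97Q in each batch, although the groups overlapped. With RGFP109 in 97Q all 9 stood lower (median -0.55), with Efhd2 at -2.30 (SE 1.44) and Pdcd6 at -0.55 (SE 0.40). RGFP109 in 25Q had 6 higher, with Ppp3r1, the regulatory subunit of calcineurin, at -0.64 (SE 0.26, edgeR p = 0.0367) and Sri at 0.53 (SE 0.37). Under RGFP109 97Q against 25Q had 6 lower, with Ppp3r1 at 0.48 (SE 0.26) and Tesc, whose 97Q sum in batch 2 was 0, at -3.68 (SE 2.19). The interaction had 8 lower, with Sri at -0.86 (SE 0.52) and Ppp3r1 at 0.59 (SE 0.37).

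Luminal calcium binders of the endoplasmic reticulum and Golgi were all tested, and 8 of 9 stood higher in 97Q with vehicle (median 0.37) and with RGFP109 (median 0.29). Nucb1, a Golgi calcium binder, stood at 1.47 (SE 0.53, edgeR p = 0.02002) in vehicle neurons and Rcn3, whose 25Q sum in batch 2 was 0, at 2.80 (SE 2.02). Nucb1 sums were 103, 19.8 and 134 CPM for 25Q vehicle and 144, 171 and 188 CPM for 97Q vehicle. The groups did not overlap, as in 3.78% of all genes in that direction and 4.68% in the other. Under RGFP109 Nucb1 stood at 0.56 (SE 0.50) and Calr, the chaperone calreticulin, at 0.29 (SE 0.28). The drug in 97Q gave Rcn2 at -0.54 (SE 0.30) and Nucb1 at -0.58 (SE 0.52), and in 25Q it gave Canx at 0.38 (SE 0.27) and Rcn2 at -0.28 (SE 0.30). For the interaction Nucb1 stood at -0.91 (SE 0.72) and Nucb2 at 1.84 (SE 1.94).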

How the data were processed

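The authors deposited 1 table of read counts per gene for 127 single cells, in whole numbers and not normalized. Per the submitters' processing notes, reads were handled with FastQC, Trimmomatic 0.36, STAR 2.5 and HTSeq 0.9.1 on GRCm38 (mm10). The strand setting was not given in the sources used here. All 127 columns matched a sample label, and 53274 of 53465 identifiers matched a GENCODE M21 symbol.

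Members, lists and comparisons were chosen with earlier results of these data known. CPM are reads per 1000000 counted reads of a cell or sum. Counts of the HTT neurons were summed per group and batch and fitted with edgeR 4.0.16 (quasi-likelihood, TMM, terms for group and batch, robust, 6 residual degrees of freedom, Benjamini-Hochberg adjustment, R 4.3.3), keeping genes that passed filterByExpr and had a read in at least 20% of cells. The common biological coefficient of variation was 0.93. Sums held 8665881 to 76217208 reads. Deviations from group means correlated at 0.11 to 0.30 between groups within a batch, so batch was kept as a term. Across batches they correlated at -0.19 to 0.02, but taking each group's mean over its 3 batches away lowers those values by itself. They are therefore no separate support for the term. Alternatives used DESeq2 1.42.0, limma 3.58.1, other size factors, no filter, no batch term, thinned cells and left-out batches or glial-rich cells. Sums without the cell highest in a gene were added after the data were seen. Genes named are all members, the 2 genes of smallest p in each list and comparison, and the 3 genes of highest rho per member. A value that this rule names is not reported here. Scripts were tested on simulated data. Shares have exact (Clopper-Pearson) 95% limits where given, which, like floors of 3 reads, cover counting error only, because amplified reads carry no molecular identifier.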

Additional observations from a re-analysis of the deposited data

How the results depend on the processing

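No gene passed edgeR's adjusted threshold in any of the 5 comparisons, and this count moved with the tool. DESeq2 passed 213 genes for 97Q against 25Q with vehicle, 277 for the same under RGFP109, 110 for RGFP109 in 97Q, 143 for RGFP109 in 25Q and 70 for the interaction, and under RGFP109 97Q against 25Q had 4 with limma-voom, 2 with the mean CPM of cells and 3 without the filter, which also gave 1 for RGFP109 in 97Q. The cause was not tested. With no replicate block (batch left out of the terms), 0 genes passed, and the Ncald value under RGFP109 was -2.86 and that of Calb2 -4.69. Of 440 refitted fold changes of the 8 members, 399 kept direction and side of the threshold, 5 passed it (all DESeq2) and 36 changed sign. Calb2, Ncald and Vsnl1 kept their sign in all 11 settings for 97Q against 25Q, in either treatment, and for RGFP109 in 25Q. Sign changes: Calb1 with limma-voom stood at -0.92 (97Q against 25Q, vehicle), 0.84 (RGFP109 in 97Q), -0.86 (RGFP109 in 25Q) and 1.70 (interaction), with mean CPM of cells at -1.55 (RGFP109 in 25Q) and 1.18 (interaction), with no replicate block at -0.083 (RGFP109 in 25Q) and with thinned cells at -0.062 (97Q against 25Q, RGFP109). Calb2 for RGFP109 in 97Q stood at -0.19 with DESeq2, -1.17 with limma-voom, -0.32 with mean CPM of cells, -0.052 without the filter and -0.43 with thinned cells. Without the 8 glial-rich neurons of the HTT groups Ncs1 stood at 0.089 (97Q against 25Q, RGFP109) and Hpcal1 at 0.15 (interaction; 0.38 with limma-voom), and Vsnl1 for RGFP109 in 97Q at 0.67.

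With each batch left out in turn no gene passed in any comparison, and the values that changed sign ranged as follows, beside a cause that was not tested. For 97Q against 25Q with vehicle, Calb1 ranged from -0.82 (without batch 2) to 2.93, Hpcal1 from -1.69 to 0.054 (without batch 1) and Ncs1 from -0.13 to 0.21. For 97Q against 25Q under RGFP109, Calb1 ranged from -0.28 (without batch 2) to 1.37, Hpca from -0.25 (without batch 2) to 1.61, Hpcal1 from -1.69 to 0.12 (without batch 1) and Ncs1 from -0.23 to 0.036. For RGFP109 in 97Q, Calb1 ranged from -1.70 to 0.89 (without batch 2), Calb2 from -2.26 (without batch 3) to 0.62, Ncald from -0.50 to 0.083 and Hpcal1 from -2.59 to 0.018. For RGFP109 in 25Q, Calb1 ranged from -0.58 to 0.35. For the interaction, Calb1 ranged from -1.61 to 0.54, Vsnl1 from -0.20 to 0.080, Hpcal1 from -0.95 to 0.86, Hpcal4 from -0.27 to 1.07 and Ncs1 from -0.44 to 0.054.

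Pvalb had a value only without the filter. Batch 2 held 3 or 4 cells per group, so its sums follow single cells. The batch term changed no call by adjusted p, as 0 genes passed with and without it, but without it 6 edgeR values of members with an unadjusted p under 0.05 no longer had one: Calb2 under RGFP109 (p = 0.0562), Calb2 and Ncald for RGFP109 in 25Q (p = 0.0551 and 0.16), Vsnl1 for RGFP109 in 97Q (p = 0.0624), and Calb2 and Ncald for the interaction (p = 0.172 and 0.222).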
